A study of Mus musculus with 29 samples.

Results

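The 7 glutamate transporter genes described here were found by name in the RNA-seq table: Slc17a6, Slc17a7 and Slc17a8, which encode the vesicular transporters VGLUT2, VGLUT1 and VGLUT3, and Slc1a1, Slc1a2, Slc1a6 and Slc1a7, which encode the plasma membrane transporters EAAT3, EAAT2, EAAT4 and EAAT5. All 7 were among the 24062 genes listed, and 5 passed the filter on low counts. Slc17a6 and Slc17a8 did not pass it and are given by their reads only. The rule used no measured value.

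Expression was measured by RNA-seq in 15 libraries of sorted mouse retinal cells, with 3 from each of 5 populations, and open chromatin by ATAC-seq in 2 libraries from each of the same populations and from green cones. ON bipolar cells (ON-BC) and OFF bipolar cells (OFF-BC) came from Otx2-GFP+/-; Grm6-YFP+/+ mice, and all bipolar cells (pan-BC) from Otx2-GFP+/- mice for RNA-seq and from Otx2-GFP+/-; Grm6-YFP+/+ mice for ATAC-seq, at postnatal day 42 to 48. All bipolar groups therefore carried 1 Otx2 allele with GFP. YFP in these mice is driven by the Grm6 promoter in ON bipolar cells, and OFF-BC were set apart from ON-BC by their weaker fluorescence and sorted again. Rods were sorted from Nrl-eGFP mice, blue cones from Nrl-eGFP;NrlKO mice, whose photoreceptors lack the rod factor NRL and stand in for blue cones, and green cones from Opn1mw-GFP mice. The photoreceptors were 56 days old and had been collected for earlier work of the laboratory. Class, age and study therefore changed together between bipolar cells and photoreceptors and cannot be told apart. The study treats the replicates as biological, and the labels name no animals. Same-numbered ON-BC and OFF-BC libraries had the same age and may come from the same sort, which the labels do not state. A further 2 libraries of double-sorted green cones were used for their peaks only.

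RNA-seq libraries held 12329548 to 26266746 counted reads, and ATAC-seq libraries 4176776 to 12345845. The targeted gene Nrl was at 14181 ± 2573 normalized read counts in rods and 636 ± 141 for blue cones (mean ± SD, n = 3). Rod markers summed to 1488968 to 2156410 normalized counts in rods and 5596 to 46941 elsewhere, cone markers to 1463000 to 1676632 for blue cones and 4508 to 92008 elsewhere, and bipolar markers to 160451 to 223509 in the bipolar populations and 7384 to 38393 in photoreceptors. ON bipolar markers summed to 138477 to 154014 for ON-BC and 15677 to 24274 for OFF-BC, and OFF bipolar markers to 2015 to 2180 and 35097 to 55974. By these sums the labelled populations held the markers of their own cells at the highest level, with reads of the other classes in each. Of the OFF bipolar markers, Vsx1 was higher in ON-BC (975) than in OFF-BC (287), and the others were higher in OFF-BC. Of the bipolar markers, Cabp5 was at 31237 for ON-BC and 27234 for blue cones, and Otx2 at 9315 and 7034. The other bipolar markers were far lower in blue cones.

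Photoreceptors and bipolar cells both release glutamate, from ribbon synapses. The vesicular transporters load it into synaptic vesicles. In the retina VGLUT1 is best known from photoreceptors and bipolar cells, VGLUT2 from ganglion cells, and VGLUT3 from a small class of amacrine cells. These need not be their only sites. The plasma membrane transporters take released glutamate back up together with sodium. EAAT2 is also the main transporter of brain astrocytes, EAAT4 is best known from cerebellar Purkinje cells, EAAT3 is a widespread neuronal form, and EAAT5 is a retinal form with a large chloride conductance that is found on photoreceptor and bipolar cell terminals. Glial uptake in the retina depends mainly on Slc1a3 (GLAST) of Müller glia, which is not among the 7 genes.

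On the RefSeq annotation of GRCm38, Slc17a6 lies at chr7:51621830-51671126 and Slc17a7 at chr7:45163921-45176139, Slc17a8 at chr10:89574020-89621249 on the minus strand, Slc1a1 at chr19:28835135-28913960, Slc1a2 at chr2:102658689-102790784, Slc1a6 at chr10:78780496-78814825 and Slc1a7 at chr4:107968406-108013529, the last 4 and both Slc17 genes of chromosome 7 on the plus strand. Slc1a2 has 2 annotated start sites and 4 transcripts of 2127 to 11565 bases, and it shares exon bases with Gm13872 on the opposite strand. Without strand in the counting, reads of these 2 genes cannot be told apart.

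The ATAC-seq table held 110715 regions of 200 bp, and 55 of them had their nearest start site at one of the 7 genes: 22 at Slc1a2, 10 at Slc1a1, 8 at Slc1a7, 6 at Slc17a7 and 3 each at Slc17a6, Slc17a8 and Slc1a6. By their centres 31 lay in introns, 20 between genes and the rest in exons, and 7 of the 55 were promoter regions (1000 bp before to 100 bp after a start site). A region is named below by its gene and the distance of its centre from the nearest start site in bp, with a minus sign for upstream. The following 8 were picked by rule, with calls by the test described below. They include every Slc1a6 region, the Slc17a6 region with the most TAATCC matches, and the regions called lower in ON-BC than in OFF-BC. The Slc1a2 +22856 region had the lowest limma adjusted p of that gene's regions called higher in pan-BC than in rods. The Slc1a7 region was the only one of its gene called between rods and blue cones. All are written 5′ to 3′ on the plus strand of GRCm38. Capitals mark matches on either strand to TAATCC, the K50 homeodomain motif bound by CRX and OTX2, to TAATTA, the Q50 homeodomain motif, or to CAGATG, an E-box. A sequence without capitals holds none of these letters.
Slc1a6 -195, upstream of the start site (chr10:78780202-78780401): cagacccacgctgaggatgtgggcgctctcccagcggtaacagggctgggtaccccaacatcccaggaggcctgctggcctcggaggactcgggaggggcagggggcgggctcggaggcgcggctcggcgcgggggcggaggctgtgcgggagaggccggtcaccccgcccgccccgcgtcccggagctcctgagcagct
Slc1a6 +7439, across a coding exon (chr10:78787836-78788035): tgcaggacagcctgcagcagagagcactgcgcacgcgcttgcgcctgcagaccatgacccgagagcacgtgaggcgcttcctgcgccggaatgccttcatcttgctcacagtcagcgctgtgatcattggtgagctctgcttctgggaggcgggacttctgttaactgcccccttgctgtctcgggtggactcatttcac
Slc1a6 +32375, across a coding exon (chr10:78812772-78812971): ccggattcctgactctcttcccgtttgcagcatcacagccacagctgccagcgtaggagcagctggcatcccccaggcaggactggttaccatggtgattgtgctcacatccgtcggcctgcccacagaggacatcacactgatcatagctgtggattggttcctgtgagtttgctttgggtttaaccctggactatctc
Slc17a6 -3668, between genes (chr7:51618063-51618262): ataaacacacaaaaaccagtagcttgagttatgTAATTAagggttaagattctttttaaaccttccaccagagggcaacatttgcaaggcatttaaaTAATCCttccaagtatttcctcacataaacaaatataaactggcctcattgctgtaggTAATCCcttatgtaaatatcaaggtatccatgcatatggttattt
Slc1a1 +35410, intronic (chr19:28870446-28870645): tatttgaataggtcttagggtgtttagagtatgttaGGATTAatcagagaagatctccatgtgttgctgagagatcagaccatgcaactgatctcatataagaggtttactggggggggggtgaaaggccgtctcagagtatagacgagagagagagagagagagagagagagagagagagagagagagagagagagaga
Slc1a2 -12405, intronic, before the internal start site (chr2:102693934-102694133): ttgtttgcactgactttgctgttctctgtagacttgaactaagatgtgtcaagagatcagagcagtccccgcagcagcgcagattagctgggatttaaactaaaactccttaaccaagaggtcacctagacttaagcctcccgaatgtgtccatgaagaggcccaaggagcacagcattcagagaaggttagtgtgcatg
Slc1a2 +22856, intronic (chr2:102681446-102681645): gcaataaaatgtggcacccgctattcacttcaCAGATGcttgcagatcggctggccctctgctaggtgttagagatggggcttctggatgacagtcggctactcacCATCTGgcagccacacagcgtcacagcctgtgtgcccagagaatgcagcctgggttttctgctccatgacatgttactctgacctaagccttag
Slc1a7 -2652, between genes (chr4:107965655-107965854): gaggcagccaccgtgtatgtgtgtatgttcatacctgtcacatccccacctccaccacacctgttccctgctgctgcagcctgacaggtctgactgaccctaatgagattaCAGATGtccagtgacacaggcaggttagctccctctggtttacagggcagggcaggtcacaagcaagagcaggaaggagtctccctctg

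Both Slc1a6 regions inside the gene cross a splice boundary, with 129 and 135 of their 200 bases in a coding exon. The Slc17a6 -3668 region, picked for its K50 matches, held 2 of them and 1 Q50 match. The Slc1a1 +35410 region held 1 K50 match and, apart from it at the far end, a run of alternating a and g. The Slc1a2 +22856 region held 2 E-box matches. Over all 55 regions, TAATCC was found in 12 (21.8%, against 21.8% of all regions in the table), TAATTA in 3 (5.45% against 5.2%) and CAGATG in 18 (32.7% against 22.3%). The first 2 shares were close to those of all regions.

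Slc17a7 was the vesicular transporter gene of every population. Its normalized read counts were 5083, 5209 and 5710 for pan-BC, 5011, 5250 and 4951 for ON-BC, and 5331, 6792 and 7978 for OFF-BC. They were 2857, 3420 and 2975 for rods and 4262, 5009 and 5895 for blue cones. Rods were thus lowest, with all 3 libraries under every other library. In order of the mean, the levels ran from OFF-BC (6700 ± 1326, mean ± SD, n = 3) through pan-BC (5334 ± 332), ON-BC (5070 ± 158) and blue cones (5055 ± 817) to rods (3084 ± 297). Of the neighbours in this order, only blue cones and rods differed when tested against no change (log2 difference 0.70 ± 0.14, SE, limma adjusted p = 4.27e-04). In bulk samples such as these, fewer cells of a type and less RNA per cell cannot be told apart.

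No difference in Slc17a7 reached the threshold used for calls, a log2 fold change significantly beyond 1 with a false discovery rate of 0.05. The pan-BC level was 1.73-fold that of rods (log2 0.79, 95% interval 0.49 to 1.09), and the OFF-BC level 2.15-fold that of rods (log2 1.10, 95% interval 0.80 to 1.40, limma adjusted p = 0.447). Between ON-BC and OFF-BC the log2 difference was -0.38 (95% interval -0.68 to -0.08, limma adjusted p against no change 0.0552), although the libraries of these populations did not overlap.

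Slc17a6 was nearly absent. It had 11 reads in the 3 pan-BC libraries together (5, 6 and 0), 24 for ON-BC (5, 5 and 14), 34 for blue cones (10, 5 and 19), and 0 in all libraries of OFF-BC and rods. A count of 0 allows a mean of up to 1.14 normalized counts in OFF-BC and 1.03 for rods (3 counts over the population, counting error only). After scaling, the reads of ON-BC were 7.11 times this limit for OFF-BC, and those of blue cones 8.31 times that for rods. These ratios leave out the counting error of the 24 and 34 reads, so they are not lower bounds. ON-BC replicate 3 held 14 of the 24 reads, and without it the ratio was 4.41. Without blue cones replicate 3, which held 19 of the 34, the ratio to the limit for rods was 5.54. Both left-out libraries were chosen after their values were seen. When the filter was left out, limma's adjusted p was 0.159 and 0.0673 for these comparisons, and neither was called.

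The ganglion cell markers (6 genes) summed to 367 to 381 normalized counts in pan-BC, 263 to 318 for ON-BC, 62.6 to 119 for OFF-BC, 34.0 to 67.0 for rods and 141 to 201 for blue cones. These sums were therefore higher in the populations with Slc17a6 reads. The part of ganglion cells in these reads was not tested. Of the defining ganglion cell genes, Pou4f2 was at 0.691 for pan-BC, at 0.342 for ON-BC and at 0 in the other populations, whereas most of the sum in blue cones was Pou4f1 (129). The remaining markers were not clearly higher in blue cones than in rods. Rbpms was at 10.52 for blue cones and 17.03 for rods, Nefl at 25.35 and 32.67, Sncg at 3.754 and 3.472, and Thy1 at 0 in both.

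Slc17a8 was as low. It had 18 reads in pan-BC, 5 for ON-BC, 9 for OFF-BC, 2 for rods and 9 for blue cones, and at least 1 library of every population had none. Pan-BC held 9.60 times the rods' reads after scaling, with an exact 95% counting interval of 2.30 to 85.3. The adjusted p without the filter was 0.912, and no order of populations can be read from these values. The amacrine markers (7 genes) summed to 564 to 611 for pan-BC and 2115 to 2448 for rods, mostly Slc6a9 (2271 for rods). The other markers of the list were higher in pan-BC than in rods, such as Tfap2b (91.6 against 4.25) and Gad1 (60.6 against 1.40). Slc32a1, the vesicular transporter of inhibitory neurons, was at 2.50 for pan-BC and 0 for rods. The part of amacrine cells in the Slc17a8 reads was not tested.

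The share of each gene in its family was taken from counts per kb of exon, which allows for gene length. Slc17a7 made up 99.7% or more of the vesicular family in every library. Its level per kb lay between the 95.1 and the 97.3 percentile of the 22511 genes with a length in the table.

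The largest difference between bipolar cells and photoreceptors among the 7 genes was in Slc1a6. Its normalized counts were 37.2, 44.4 and 41.6 for pan-BC, 37.2, 48.0 and 33.9 for ON-BC, and 55.9, 61.3 and 33.1 for OFF-BC. In blue cones they were 1.504, 6.83 and 3.70, and in rods 0, 0 and 1.08, the last from 1 read. All 9 bipolar libraries were above all 6 photoreceptor libraries.

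Pan-BC exceeded rods in Slc1a6 by 5.04 on the log2(value + 1) scale (SE 0.45, limma adjusted p = 3.55e-07) and blue cones by 3.22 (SE 0.45, limma adjusted p = 3.49e-04), both past the threshold. The fitted difference from rods depends on the 1 added, since the rods had 1 read. In reads, pan-BC held 121 times the rods' level, with an exact 95% counting interval of 21.2 to 4803, and 10.3 times that of blue cones (6.06 to 18.6). Blue cones held 16 reads and were 1.82 above rods on the log2 scale (limma adjusted p = 0.22 against the threshold, 0.00244 against no change). ON-BC and OFF-BC stood at 39.7 ± 7.41 and 50.1 ± 14.95, and the 95% interval of their log2 difference ran from -1.25 to 0.66. Slc1a6 was still a low gene in bipolar cells, at the 53.5 percentile of the level per kb in pan-BC, and made up 0.769 ± 0.101% of the plasma membrane family there.

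**Figure D1:**
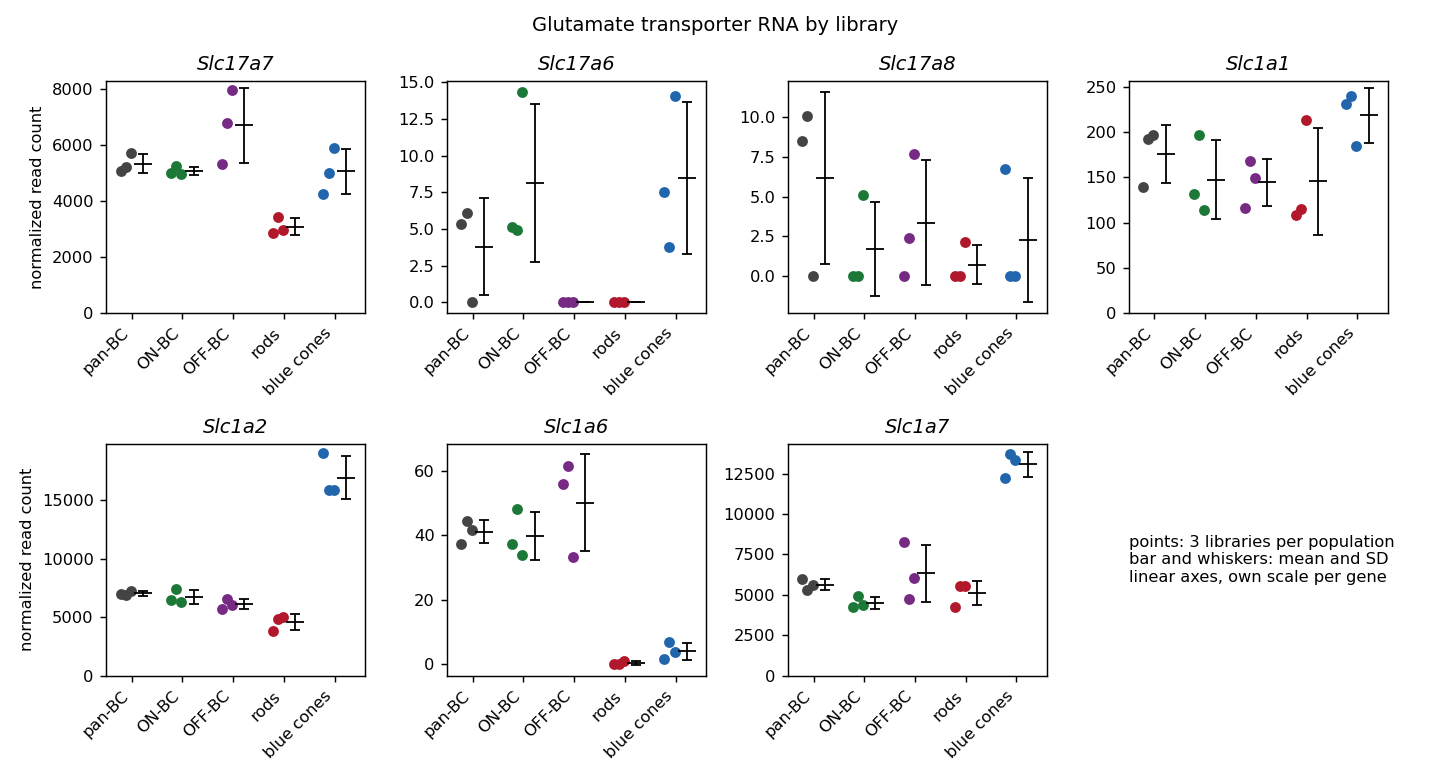
Normalized read counts (vertical axes, linear, each gene on its own scale) of the 7 glutamate transporter genes in the 5 populations. Points are the 3 libraries of a population, and the bar and whiskers their mean and SD. Slc1a6 lies between 33.1 and 61.3 in the bipolar libraries and at or under 6.83 in photoreceptors, and Slc1a2 and Slc1a7 are highest in blue cones.

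Slc1a2 was highest in blue cones. It had 19050, 15829 and 15878 normalized counts there, against 3797, 4862 and 5023 for rods. In the bipolar cells the counts were 6962, 6880 and 7220 for pan-BC, 6426, 7433 and 6325 for ON-BC, and 5710, 6555 and 6026 for OFF-BC. The 3 blue cone libraries were above all the others and the 3 rod libraries below all the others.

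Blue cones exceeded rods in Slc1a2 by 3.72-fold (log2 difference, rods minus blue cones, -1.90, SE 0.12, limma adjusted p = 1.48e-05), which was past the threshold. They exceeded pan-BC by 2.40-fold, and this was not called (log2 -1.26, limma adjusted p = 0.066). By edgeR's quasi-likelihood test on the recovered reads the adjusted p was 0.0206, by DESeq2 0.0899, and by limma with TMM scaling 0.0201. Against ON-BC (2.51-fold, limma adjusted p = 0.0265) and OFF-BC (2.77-fold, limma adjusted p = 0.00299) blue cones were called. Among the bipolar populations the test found no difference in Slc1a2 between neighbours in the order pan-BC, ON-BC, OFF-BC (limma adjusted p against no change 0.881 and 0.443), and OFF-BC were 1.34-fold above rods (limma adjusted p against no change 0.00476).

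Slc1a7 also had its highest level in blue cones, at 12210, 13713 and 13312 normalized counts. It stood at 4270, 5572 and 5552 for rods, 5965, 5279 and 5606 for pan-BC, and 4232, 4920 and 4365 for ON-BC. OFF-BC were the most spread, at 8234, 4752 and 6036. The blue cone libraries were above all the others, and the other 4 populations overlapped in part.

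The 2.56-fold excess of blue cones over rods in Slc1a7 (log2, rods minus blue cones, -1.36, SE 0.16) was not called by limma (adjusted p = 0.114) or DESeq2 (0.199), and was called by edgeR (0.0335) and by limma with scaling to library totals (0.0212). The 2.33-fold excess over pan-BC was not called by limma (adjusted p = 0.227), edgeR (0.0742) or DESeq2 (0.447). Over ON-BC it was 2.91-fold and called (limma adjusted p = 0.00714), and over OFF-BC 2.11-fold and not called (limma adjusted p = 0.645). Against no change, all 4 differences were significant, with adjusted p from 2.09e-07 to 1.26e-05. From pan-BC to rods the log2 difference was 0.14, with a 95% interval of -0.20 to 0.48. ON-BC was lower than OFF-BC by 0.46 on the log2 scale (95% interval -0.80 to -0.12, limma adjusted p against no change 0.0441), with overlapping libraries. With the replicate number as a block, a fit added after the data were seen, this difference did not pass (limma adjusted p = 0.13).

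The Müller glia markers (8 genes) summed to 13574 to 16991 normalized counts in blue cones, 1746 to 2857 for rods, 7336 to 8738 for pan-BC, 6343 to 7562 for ON-BC and 9411 to 14000 for OFF-BC. Most of the sum in blue cones was Clu (13088, against 1147 for rods), and Apoe was also higher in blue cones (1763 against 279). Sox9 (37.05 against 21.5) and Kcnj10 (25.46 against 20.72) were higher in blue cones as well. The other 4 of the 8 markers were lower there. Slc1a3 was at 103 for blue cones and 201 for rods, Glul at 309 and 397, Rlbp1 at 210 and 268, and Aqp4 at 33.5 and 72.1. Slc1a2 and Slc1a7 were higher in blue cones. The astrocyte markers (4 genes) summed to 58.5 or less in every library. The part of glial RNA in Slc1a2 and Slc1a7 was not tested.

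Slc1a1 was called in no comparison. Its counts were 139, 193 and 197 for pan-BC, 132, 197 and 114 for ON-BC, 116, 168 and 149 for OFF-BC, 109, 115 and 214 for rods and 231, 241 and 184 for blue cones. Neighbouring populations in the order of the means overlapped throughout, and their adjusted p against no change (limma) was 0.295 or more. The largest difference, rods minus blue cones, was -0.64 on the log2 scale, with a 95% interval of -1.22 to -0.07 and a limma adjusted p against no change of 0.0519.

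Counting the calls together, 1 of the 5 genes tested was called between pan-BC and rods (Slc1a6), where 43.6% of all genes tested were called, and 1 between pan-BC and blue cones (Slc1a6), where 36.3% were called. Between rods and blue cones 1 of 5 was called (Slc1a2), with 15.9% of all genes. Between ON-BC and OFF-BC 0 of 5 were called by limma, edgeR or DESeq2, with 0 at an unadjusted limma p under 0.05 and 6.55% of all genes called. In the further comparisons, 1 of 5 was called between ON-BC and rods and 1 between OFF-BC and rods (Slc1a6 in both), with 41.7% and 42.6% of all genes. Against blue cones, 3 of 5 were called for ON-BC (Slc1a2, Slc1a6 and Slc1a7) and 2 for OFF-BC (Slc1a2 and Slc1a6), with 34.8% and 35.5% of all genes. These comparisons share libraries. The median log2 difference of the 5 genes was 0.63 for pan-BC minus rods (0.21 over all genes tested), -0.32 for pan-BC minus blue cones (0.16), -0.30 for ON-BC minus OFF-BC (-0.015) and -1.36 for rods minus blue cones (-0.00469).

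**Figure D2:**
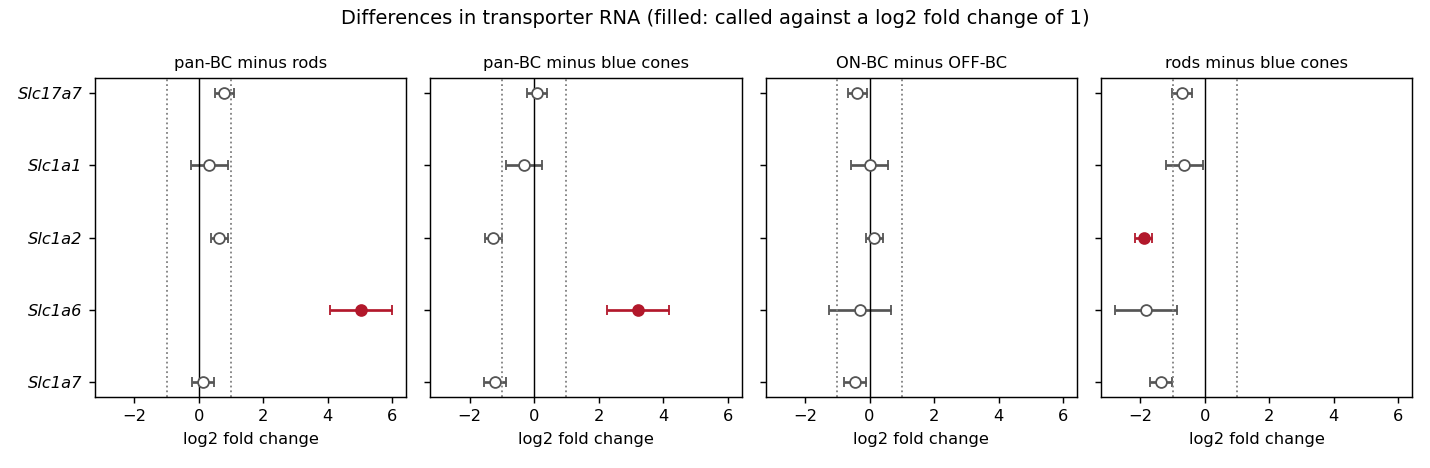
Log2 fold change with its 95% interval (horizontal axis) for the 5 genes that passed the filter, in the 4 main comparisons. Filled red points were called against a log2 fold change of 1 (dotted lines), which held for Slc1a6 in both comparisons of pan-BC with photoreceptors and for Slc1a2 between rods and blue cones.

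Of the 20 neighbouring pairs in the orders of the 5 genes, 6 differed when tested against no change, by limma and by edgeR alike. They were blue cones over rods for Slc17a7 and Slc1a6, ON-BC over blue cones for Slc1a6, blue cones over pan-BC and OFF-BC over rods for Slc1a2, and blue cones over OFF-BC for Slc1a7. By this test 79.5% of all genes differed between pan-BC and rods, 76.3% between pan-BC and blue cones, 78.4% and 75.6% between ON-BC and these, 79.3% and 75.4% between OFF-BC and these, and 57.5% between rods and blue cones. Among the bipolar populations, 27.0% differed between ON-BC and OFF-BC, 6.08% between pan-BC and ON-BC and 20.8% between pan-BC and OFF-BC.

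Within the plasma membrane family, Slc1a7 held the largest share per kb of exon in every library. Its share was 74.7 ± 1.42% for pan-BC, 71.4 ± 0.794% for ON-BC, 78.4 ± 5.86% for OFF-BC, 80.8 ± 0.709% for rods and 75.3 ± 3.09% for blue cones (SD, n = 3). Slc1a2 held 22.7 ± 0.954%, 25.9 ± 0.416%, 19.2 ± 5.05%, 17.5 ± 0.153% and 23.7 ± 3.02% in the same order. Slc1a1 and Slc1a6 held the remainder, Slc1a1 0.985% to 1.85% and Slc1a6 under 1% in every population. The summed level per kb of the family was 2566 ± 113 for pan-BC, 2154 ± 189 for ON-BC, 2732 ± 560 for OFF-BC and 2168 ± 319 for rods, and the highest was that of blue cones, at 5927 ± 126.

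The order of Slc1a7 and Slc1a2 depended on the length given to Slc1a2. These shares use all its exon bases (12062), most of them in the long transcripts. If all its reads came from the shortest transcript of 2127 bases, its level per kb would be 3301 for pan-BC and 7954 for blue cones, against 1917 per kb for Slc1a7 in pan-BC on its only annotated transcript of 2930 bases. Which transcripts were present cannot be told from gene counts.

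**Figure D3:**
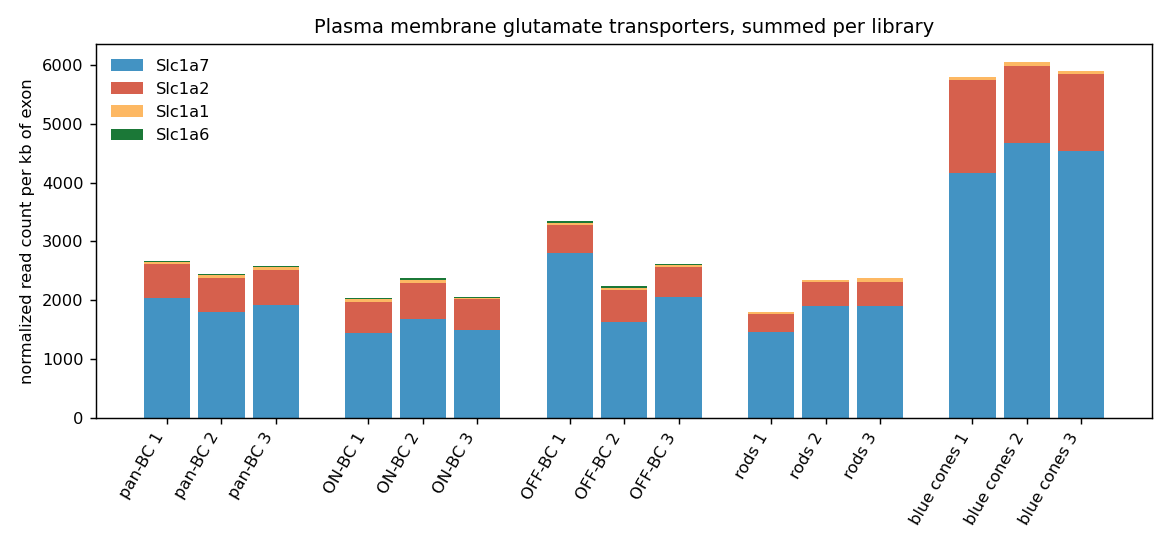
Normalized read counts per kb of exon (vertical axis, linear from 0) of the 4 plasma membrane transporter genes, stacked for each of the 15 libraries. The blue cone libraries reach about the same height, with a mean sum of 5927, and Slc1a7 is the largest part of every bar.

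Accessibility was compared in the same populations. Of the 55 regions nearest to the 7 genes, 26 were called between pan-BC and rods, 12 higher in pan-BC and 14 higher in rods (47.3%, where 51.6% of all regions tested were called). Between pan-BC and blue cones 12 were called, 5 and 7 (21.8%, against 35.9%). Between ON-BC and OFF-BC 3 were called (5.45%, against 7.39%), as were 3 between rods and blue cones (5.45%, against 10%). Neighbouring regions of 1 gene are not independent. The called share was near or below that of all regions in each comparison.

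Slc1a6 had the sharpest contrast in accessibility. All 3 of its regions were higher in pan-BC than in rods. The -195 region at its promoter had 57.6 and 63.3 normalized counts in pan-BC, 70.2 and 76.1 for ON-BC and 53.9 and 76.9 for OFF-BC. It had 20.7 and 15.9 for blue cones and 1.56 and 1.35 for rods. The log2 difference between pan-BC and rods was 4.64 (limma adjusted p = 1.44e-06), and blue cones exceeded rods as well (log2, rods minus blue cones, -2.96, limma adjusted p = 0.00345). With 5 added before the log in place of 1, the latter difference was -1.85 and was not called (limma adjusted p = 0.121).

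The +7439 region, across a coding exon of Slc1a6, separated rods from every other population. It had 192 and 194 counts in pan-BC, 224 and 236 for ON-BC and 156 and 196 for OFF-BC. Blue cones had 144 and 131 and green cones 53.0 and 59.2, whereas rods had 3.12 and 1.35. Rods were below blue cones by 5.47 on the log2 scale (limma adjusted p = 4.22e-09), and pan-BC above rods by 5.96 (limma adjusted p = 4.04e-10). A peak was called in all libraries but the rods, with a fold enrichment of 7.94 to 26.4 at the summit, including the double-sorted green cones (11.4 and 11.2). The RNA of Slc1a6 in blue cones was 4.01 ± 2.68 normalized counts (SD, n = 3).

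The +32375 region, across another coding exon of the same gene, was instead a region of bipolar cells. It had 70.4 and 74.7 counts in pan-BC, 89.6 and 79.1 for ON-BC and 78.1 and 89.6 for OFF-BC. Rods and blue cones had 0 in both libraries, and green cones 1.54 and 0. Both comparisons of pan-BC with photoreceptors were called (limma adjusted p = 1.29e-06 for rods and 5.38e-06 for blue cones). The 3 regions of Slc1a6 thus had 3 different patterns in blue cones, with 18.3, 137 and 0 counts on average.

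At Slc1a7 the RNA and the promoter ran in different orders. The -21 region, which spans the start site, had 120 and 142 counts in pan-BC, 166 and 138 for ON-BC and 133 and 143 for OFF-BC. It had 749 and 768 for rods, 374 and 385 for blue cones and 409 and 380 for green cones. Rods exceeded pan-BC by 2.53 on the log2 scale (log2, pan-BC minus rods, -2.53, limma adjusted p = 3.95e-07) and blue cones exceeded pan-BC by less (-1.53, limma adjusted p = 0.00878, which became 0.0631 without pan-BC replicate 1 and 0.0526 without blue cone replicate 2). The RNA of Slc1a7 was at 5617 ± 343 for pan-BC and 5131 ± 746 for rods and was highest in blue cones.

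The -2652 region upstream of Slc1a7 was high in rods, at 308 and 329 counts. Pan-BC had 28 and 19.96, ON-BC 37.3 and 29.3, OFF-BC 35.03 and 19.5, blue cones 41.4 and 40.5, and green cones 94.5 and 50.7. Rods were above pan-BC (log2, pan-BC minus rods, -3.69, limma adjusted p = 3.17e-06) and above blue cones (2.93, limma adjusted p = 5.87e-04). Inside the gene, the +6334 region was higher in pan-BC (38.4 and 54.7) than in rods (3.12 and 4.07, limma adjusted p = 9.64e-04), and the +22676 region was higher in blue cones (202 and 238) than in pan-BC (55.2 and 59.3, limma adjusted p = 0.00168).

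Slc17a7 had open regions at and after its start site that were highest in rods, where its RNA was lowest. The -30 region had 368 and 365 counts in rods, 145 and 144 for blue cones and 85.6 and 79.8 for pan-BC. Pan-BC was below rods by 2.14 on the log2 scale (-2.14, limma adjusted p = 1.62e-04). The +765 region in the gene had 247 and 245 for rods and 38.4 and 31.9 for pan-BC (-2.78, limma adjusted p = 6.20e-05), and the -1838 region 199 and 189 against 36.8 and 37.6 (-2.35, limma adjusted p = 0.00238). In all, 4 of the 6 regions of Slc17a7 were called higher in rods than in pan-BC and none higher in pan-BC. The +4013 region had the opposite means, 60.1 for pan-BC and 21.1 for rods, and was not called.

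At Slc1a2 the regions at the first start site were not called and those further into the gene changed in both directions. The +76 region, the most accessible of the 22 by its mean in pan-BC, had 261 and 302 counts in pan-BC, 459 and 459 for rods and 363 and 363 for blue cones, and was not called. The intronic +22856 region had 131 and 173 for pan-BC, 160 and 230 for ON-BC, 59.3 and 48.7 for OFF-BC, 7.79 and 19.0 for rods and 28.5 and 23.1 for blue cones. Pan-BC exceeded rods there by 3.52 (limma adjusted p = 1.04e-05) and blue cones by 2.51 (limma adjusted p = 0.00187) on the log2 scale.

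Further into the gene, the -12685 and -12405 regions of Slc1a2, which lie side by side before the internal start site, were higher in photoreceptors. The -12405 region had 131 and 140 counts in rods, 189 and 176 for blue cones and 103 and 169 for green cones, but 18.4 and 18.8 for pan-BC. Its log2 difference was -2.80 between pan-BC and rods (limma adjusted p = 0.00243) and -3.23 between pan-BC and blue cones (limma adjusted p = 8.52e-04). The -12685 region had 299 and 369 for rods, 280 and 267 for blue cones and 70.4 and 63.3 for pan-BC, and was called in the same comparisons (limma adjusted p = 6.15e-05 and 9.84e-04). None of the regions of Slc1a2 was called between rods and blue cones, although its RNA was.

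The 3 regions called between ON-BC and OFF-BC lay at Slc1a1 and Slc1a2. The Slc1a1 +35410 region had 5.97 and 2.93 counts in ON-BC and 66.01 and 25.3 for OFF-BC (log2, ON-BC minus OFF-BC, -3.00, limma adjusted p = 0.00752), with higher counts in rods (142 and 138) and blue cones (122 and 146). The Slc1a2 -12405 region had 19.4 and 2.93 for ON-BC and 56.6 and 50.6 for OFF-BC (-2.61, limma adjusted p = 0.0336). The Slc1a2 -20356 region went the other way, with 38.8 and 39.5 for ON-BC and 6.74 and 5.84 for OFF-BC (2.46, limma adjusted p = 0.0046). With the replicate number as a block, in a fit of these 4 libraries, none of the 3 was called (limma adjusted p = 0.0695, 0.0964 and 0.183, in the order above).

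The first 2 of these were low in ON-BC and high in photoreceptors, with OFF-BC in between. Neither was called without ON-BC replicate 2 (limma adjusted p = 0.0761 and 0.594) or without OFF-BC replicate 1 (0.152 and 0.183), and the Slc1a2 -12405 region was not called without OFF-BC replicate 2 either (0.121). In the RNA-seq libraries the cone markers summed to 21999 to 92008 normalized counts in OFF-BC and 4508 to 5138 for ON-BC, and the rod markers to 5596 to 8684 and 23895 to 27254. The Slc1a2 -20356 region was also high in rods (mean 121.5) and blue cones (88.1), but it was lowest in OFF-BC (6.29). Whether photoreceptor chromatin had a part in the ATAC-seq values of OFF-BC was not tested.

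Slc17a6 and Slc17a8, with few or no reads in RNA, had regions open in bipolar cells. The Slc17a6 -3668 region had 32.0 and 46.2 counts in pan-BC, 46.3 and 32.2 for ON-BC and 31.0 and 17.5 for OFF-BC. It had 0 in both rod libraries, 2.59 and 0 for blue cones and 3.07 and 2.82 for green cones. The comparisons of pan-BC with rods (limma adjusted p = 3.29e-05) and with blue cones (5.72e-04) were called, and peaks were called in both libraries of pan-BC and ON-BC and in 1 of OFF-BC. The Slc17a6 +100406 region, far beyond the gene, had 34.4 and 49.0 for pan-BC and 0 for rods and blue cones. The intronic Slc17a6 +2768 region was instead highest in cones. Its means were 6.96 for pan-BC, 3.59 for rods, 17.5 for blue cones and 26.6 for green cones. Peaks were called there in cone libraries only, and pan-BC did not differ by a call from rods or blue cones.

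The Slc17a8 -14005 region had 81.6 and 80.4 counts in pan-BC, 89.6 and 77.6 for ON-BC, 56.6 and 60.3 for OFF-BC, 5.45 and 4.74 for rods and 12.9 and 7.23 for blue cones. It was called for rods (log2 3.75, limma adjusted p = 9.34e-06) and for blue cones (2.94, limma adjusted p = 5.10e-04). All 3 regions of Slc17a8 and 2 of 3 of Slc17a6 were called higher in pan-BC than in rods, although the Slc17a8 +1678 region was not called without pan-BC replicate 2 or rod replicate 2, nor the Slc17a8 -9028 region without pan-BC replicate 2. The Slc17a8 -9028 region also had a peak in both blue cone libraries. Its means were 24.5 for pan-BC and 19.6 for blue cones, without a call between them. A region was given to the gene with the nearest start site, which need not be the gene that it acts on.

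The Slc1a1 promoter was open in every population, without a call. The -57 region had 124 and 193 counts in pan-BC, 182 and 202 for ON-BC, 164 and 115 for OFF-BC, 153 and 177 for rods and 193 and 181 for blue cones. Within the gene, the +35410 and +40994 regions were lower in pan-BC than in rods (limma adjusted p = 5.47e-05 and 4.19e-04), with means of 11.1 against 140 and 3.43 against 58.1.

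**Figure D4:**
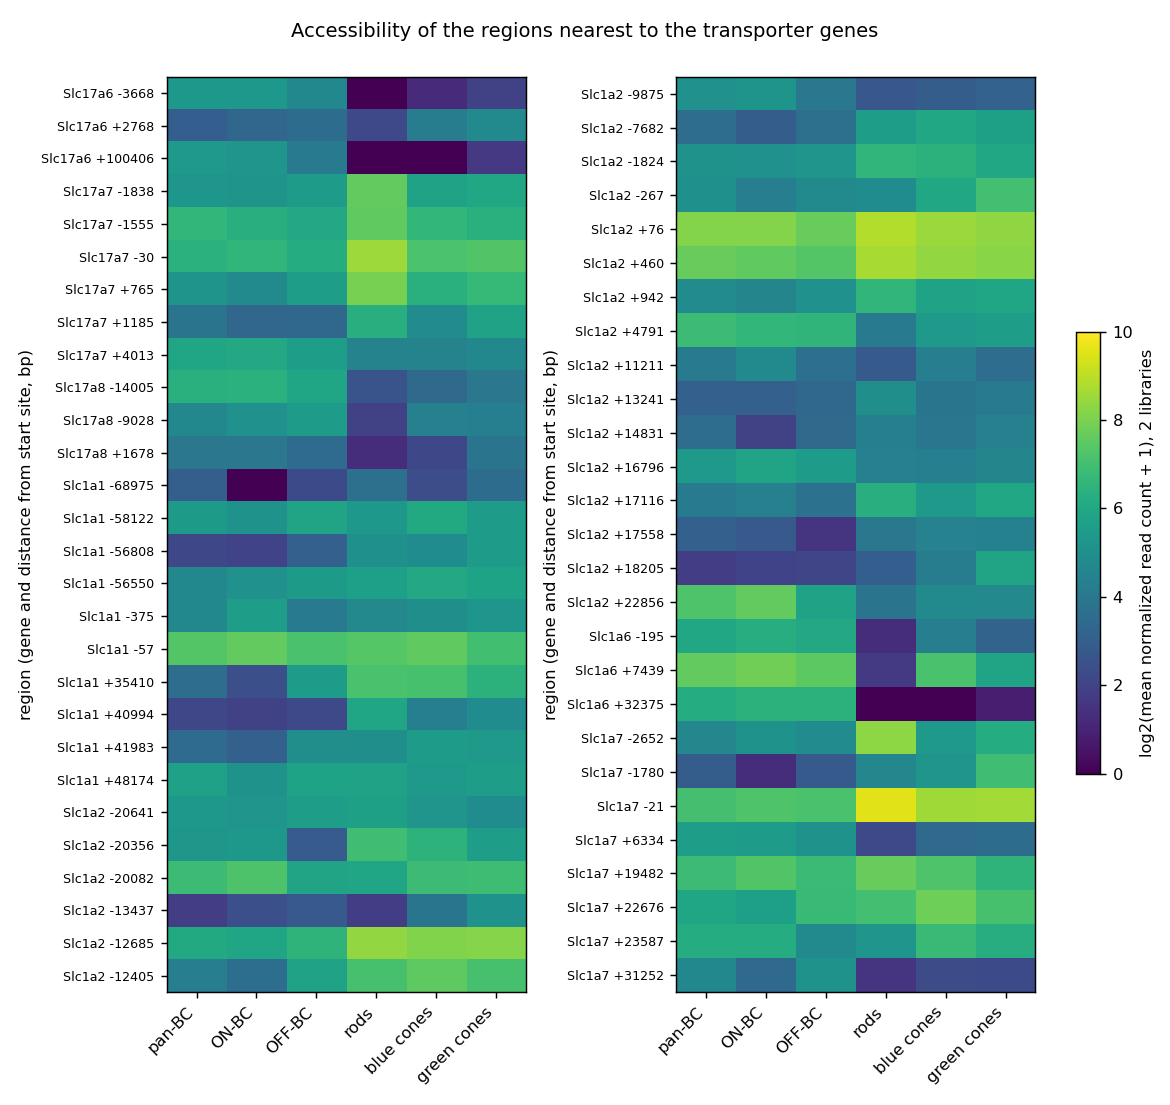
Accessibility of the 55 regions nearest to the 7 genes, as log2 of the mean normalized read count of 2 libraries plus 1 (colour), in 6 populations. Rows are named by gene and distance from the nearest start site in bp. The Slc1a6 regions are dark in rods, and the Slc1a7 -21 region is brightest in rods with a mean of 759.

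Other genes of glutamate handling were read from the same fit. Of the 38 genes listed, 34 passed the filter. Between pan-BC and rods 7 were called higher in pan-BC and 4 higher in rods, with a median log2 difference of 0.18 (0.21 over all genes). The share called was 32.4%, against 43.6% of all genes. Between pan-BC and blue cones 10 and 5 were called (44.1% against 36.3%, median 0.29 against 0.16). Between ON-BC and OFF-BC 0 and 2 were called (5.88% against 6.55%, median -0.12 against -0.015), and between rods and blue cones 3 and 4 (20.6% against 15.9%, median 0.002 against -0.00469).

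Gls2, an enzyme that makes glutamate from glutamine, was higher in bipolar cells, at 368 normalized counts in pan-BC, 23.4 for rods and 11.75 for blue cones (limma adjusted p = 5.91e-09 and 4.57e-10). Gad1 and Gad2, the enzymes of GABA synthesis and markers of amacrine cells, were at 60.6 and 20.7 for pan-BC and were also called higher there than in rods.

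Slc38a1, a carrier of glutamine, differed most of the 34 between the photoreceptor types. It was at 157 for rods, 7796 for blue cones and 7740 for pan-BC, a 49.0-fold excess of blue cones over rods (limma adjusted p = 1.83e-14). Slc25a13, the liver form of the mitochondrial aspartate-glutamate carrier, was at 195 for blue cones and 14.8 for rods (limma adjusted p = 9.27e-04), whereas Slc25a22, a mitochondrial glutamate carrier, was higher in pan-BC (10386) than in blue cones (3477, limma adjusted p = 2.44e-04). Slc18a2, the vesicular monoamine transporter, rose in the order pan-BC (468.5), rods (1925) and blue cones (7085), with every step called.

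Of the proteins known to bind the plasma membrane transporters, Arhgef11, which binds EAAT4, was at 385, 312 and 371 for pan-BC, rods and blue cones and was not called. Arl6ip5, which binds EAAT3, was at 2852 for pan-BC, 1355 for rods and 1332 for blue cones, without a call.

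Among the other members of the same families, Slc1a4, a neutral amino acid carrier, was higher in blue cones (181) than in rods (33.3, limma adjusted p = 0.0191) and pan-BC (31.1, limma adjusted p = 0.00569). The phosphate and urate carrier genes Slc17a1, Slc17a3 and Slc17a4 were highest in rods, at 403, 167 and 66.9 against 27.6, 15.5 and 4.45 for pan-BC, and all were called in this comparison.

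By Pearson correlation of log2(value + 1) over the 15 libraries, among 10150 genes with a mean of at least 100, the genes most like Slc1a6 were Diras1 (r = 0.993), Serp2 (0.991) and Gucy1b3 (0.988). Diras1 was at 418 for pan-BC, 14.3 for blue cones and 1.08 for rods. Most like Slc1a2 were Slc8a3 (0.979), Mboat7 (0.974) and Bckdhb (0.972), and Slc8a3 was at 3559 for blue cones, 1255 for pan-BC and 680 for rods. Most like Slc1a7 were Exoc7 (0.963), Dcaf4 (0.962) and Tcta (0.958), and most like Slc17a7 were Sez6 (0.947), Mgst3 (0.934) and Guk1 (0.93). Slc1a1 had no close match, with Ubqln4 at 0.8 and Tmem63b at 0.764. The 15 points fall into 5 populations and are not independent. These values therefore mix differences between populations with the spread within them.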

How the data were processed

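The gene table and the region table held a normalized signal, in which the authors scaled the reads of each library by a single size factor. Per the labels and methods, reads were aligned with STAR 2.7.0d (RNA-seq) or Bowtie2 2.2.5 (ATAC-seq), counted with HTSeq or featureCounts, and ATAC-seq fragments of up to 150 bp were used. The peak lists, which the authors deposited per library from MACS2 2.1.1, held fold enrichment and −log10 q-values at each summit, and only the former is printed here.

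All 230384 values above 0 in the gene table and 1212862 in the region table were whole reads after multiplication by the library's factor (100.0%, tolerance 0.01). Of 24062 genes, 14024 passed edgeR's filterByExpr, as did 108448 of 110715 regions. log2(value + 1) was fitted with limma 3.58.1 (R 4.3.3; trended prior, 1 model over all libraries of an assay) and tested with treat, with a log2 fold change of 1 as the bound and a Benjamini-Hochberg adjusted p of 0.05 over all features tested as the threshold. Fold changes on this scale understate those of low genes. edgeR 4.0.16 (quasi-likelihood) and DESeq2 1.42.0 on the recovered reads, and limma against no change, were run beside it, with other pseudocounts, filters and scalings, and leaving out libraries. Same-numbered ON-BC and OFF-BC libraries had the same age per the labels, so their comparison was also fitted with the replicate number as a block (correlations of same-numbered deviations from the population means in RNA-seq were -0.076, 0.222 and -0.065). The procedure was tested on simulated data. Motifs and loci were read from RefSeq's GRCm38.p6, the build of the files.

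The genes, the handling and marker lists and the tests were chosen with earlier results of these data known. Genes named were the 7 transporters, the listed handling and marker genes, and for each transporter that passed the filter the 3 genes with the highest correlation among those with a mean of at least 100, and some of these are not reported here. Intervals on reads cover counting error only. Regions were named after their values were seen.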

Additional observations from a re-analysis of the deposited data

How the results depend on the processing

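In the 4 main comparisons the direction of every tested transporter gene was the same under all alternatives run, except in leave-one-out fits of near-zero differences: Slc17a7 in pan-BC minus blue cones (-0.028 to 0.205 on the log2 scale, negative without blue cone replicate 1) and Slc1a1 in ON-BC minus OFF-BC (-0.22 to 0.17, negative without ON-BC replicate 2 and, at -0.14, without OFF-BC replicate 1). Tested against no change, 3 of 5 genes passed between pan-BC and rods, 3 between pan-BC and blue cones, 1 between ON-BC and OFF-BC and 4 between rods and blue cones. Between pan-BC and blue cones, TMM scaling and edgeR each called 2 genes in place of 1. Between rods and blue cones, edgeR and scaling to library totals each called 2 in place of 1, and leaving out 1 library gave 1 to 2 (Slc1a6 was added without blue cone replicate 1, adjusted p = 0.0419 by limma). Library totals moved the median of all genes by 0.35 for pan-BC minus rods and 0.28 for pan-BC minus blue cones. The other pseudocounts, no filter, DESeq2 and fits of 6 libraries kept the counts of genes called.

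Of the 55 regions, edgeR called 22 between pan-BC and blue cones in place of 12, and 6 between rods and blue cones in place of 3. Leaving out 1 library gave 1 to 3 between ON-BC and OFF-BC, with 1 left without ON-BC replicate 2 or OFF-BC replicate 1. With 5 added, the Slc1a6 -195 region was not called between rods and blue cones (log2 -1.85 against -2.96). The cause was not tested. Same-numbered ON-BC and OFF-BC libraries share an age. Rod and blue cone libraries were all 56 days old, whatever their number. Between pan-BC and photoreceptors, libraries share a replicate number alone. In none of the 4 comparisons was every correlation of same-numbered deviations above 0.1. With a replicate block, 1, 1, 0 and 1 genes were called in the 4 comparisons, as without it (against no change, 0 between ON-BC and OFF-BC), and 28 and 15 regions for pan-BC against rods and blue cones. It left 0 regions between ON-BC and OFF-BC and 0 between rods and blue cones, in fits of 4 libraries with 1 residual degree of freedom. With 0 to 34 reads per population, neither Slc17a6, Slc17a8 nor the photoreceptor level of Slc1a6 allows more than the intervals and limits given.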
